A study of Mus musculus with 2 samples.

Results

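Mir191 and Mir425 are 2 microRNA genes that lie side by side on mouse chromosome 9. They were measured in small RNA libraries from heart tissue of B6NCrl mouse embryos at embryonic day 12.5, labelled as mixed sex. There were 2 libraries, labelled as biological replicates 2 and 1 of a single group, so the design held no contrast between conditions and no test of one. The labels name no genetic change and no treatment, and give neither the number of embryos per library nor separate donors for the replicates. The tables hold 1973 gene rows, which stand for 1926 named microRNA genes once the strand is taken into account, and these 2 of them were chosen by symbol and by their measured counts. Mir425 was read from the sense counts of its own row. Mir191 has no row and was read from the antisense counts of the row Gm24083, a microRNA gene annotated on the opposite strand. Because measured counts entered that choice, levels and differences are given here as descriptions, without p-values.

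A microRNA is cut from a hairpin in a longer transcript by the enzymes Drosha and Dicer. One arm of the hairpin is then loaded into an Argonaute protein, where bases 2 to 8, the seed, pair with target messenger RNAs. miR-191 is found in many tissues and is often used to normalize microRNA measurements; in mouse erythroblasts it is known as a regulator of enucleation through Riok3 and Mxi1. miR-425 is known in human from the repression of NPPA, the gene of atrial natriuretic peptide, a hormone of heart muscle. In human the 2 hairpins are described as parts of a shared transcript within an intron of DALRD3.

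The seeds set the 2 microRNAs apart, and the mature arms are shown because the tables count hairpins and do not separate their arms. Sequences are from RefSeq (GRCm38.p6), both genes were matched, and capitals mark the seed.
miR-191-5p: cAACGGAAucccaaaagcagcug
miR-191-3p: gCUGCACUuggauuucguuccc
miR-425-5p: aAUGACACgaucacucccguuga
miR-425-3p: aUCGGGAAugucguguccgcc
miR-489-3p: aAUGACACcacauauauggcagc
None of the 4 arms of the cluster shared a seed with another arm of the cluster. Among 1738 mature microRNAs of the table, the only other one with any of these 4 seeds was miR-489-3p, which carries the seed of miR-425-5p. Its gene Mir489, on chromosome 6, had 1 count in replicate 2 and 2 counts in replicate 1, no more than the 3 counts that a count of 0 allows. Of the 2 genes with an arm of this seed, Mir425 thus held nearly all hairpin counts, but how many of them came from its 5p arm cannot be read from these tables.

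The whole hairpins are shown next, with the mature arms in capitals, because each count could come from any part of them.
Mir191: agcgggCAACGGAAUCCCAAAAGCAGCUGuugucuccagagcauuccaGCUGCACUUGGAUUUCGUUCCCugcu
Mir425: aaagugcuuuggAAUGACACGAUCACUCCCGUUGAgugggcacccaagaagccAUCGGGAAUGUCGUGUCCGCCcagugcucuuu
The Mir191 hairpin is 74 bases long with a GC content of 54.1%, and the Mir425 hairpin 85 bases with 54.1%. RNAfold gave a minimum free energy of -35 kcal/mol for Mir191 and -31.7 kcal/mol for Mir425. In the predicted folds, 17 of the 23 bases of miR-191-5p and 14 of the 23 bases of miR-425-5p paired with the 3p arm. The longest stretch that both hairpins shared was 5 bases, so no read of microRNA length matches both. No other microRNA hairpin of GENCODE M21 shared a 22-base window with either one in the same orientation, a search limited to annotated transcripts. Neither gene has a second copy by name.

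On GRCm38, the assembly also called mm10, Mir191 (ENSMUSG00000105497.1) lies at chr9:108568319-108568392 and Mir425 (ENSMUSG00000065579.1) at chr9:108568777-108568861. Both are on the plus strand, with 384 bases between them. In GENCODE M21 both lie within the single exon of transcript 4833445I07Rik-201, a lincRNA of the same strand. The other transcript of that gene, 4833445I07Rik-202, has Mir191 in its intron and ends 2 bases before Mir425. Dalrd3, on the same strand, starts 1024 bases after the end of Mir425, so in this annotation the mouse hairpins lie upstream of Dalrd3 and not within it. Ndufaf3, on the opposite strand, lies on the other side. RNA of these longer genes was not measured here.

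**Figure D1:**
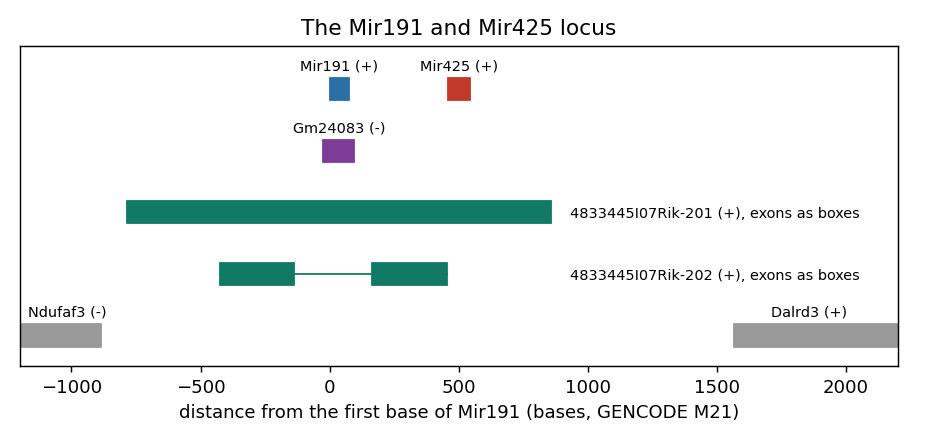
Features of the locus from GENCODE M21, placed by their distance in bases from the first base of Mir191, with strand in parentheses. Mir191 and Mir425 both fall inside the exon of 4833445I07Rik-201, and Gm24083 covers Mir191 from the opposite strand.

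The row Gm24083 (ENSMUSG00000092915.1, chr9:108568295-108568414, minus strand) covers the whole Mir191 hairpin and extends beyond it on both sides. Its M21 transcript is shown because the Mir191 value rests on it, with the reverse complement of the Mir191 hairpin in capitals.
Gm24083: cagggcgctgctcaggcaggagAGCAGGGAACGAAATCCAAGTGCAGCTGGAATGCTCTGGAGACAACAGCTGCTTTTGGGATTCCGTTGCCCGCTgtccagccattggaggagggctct
Of its 120 bases, 74 are the reverse complement of the Mir191 hairpin, with 22 before and 24 after. Antisense counts at Gm24083 numbered 8841 in replicate 2 and 8304 in replicate 1, while sense counts numbered 0 in both. A sense share of up to 0.0175% of the 17145 counts could go undetected, which covers counting error only. All counts at this row thus lay on the strand of Mir191, although the table cannot show where within the 120 bases each read lay.

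At Mir425 the strands were as unequal and the other way round. Its row had 11636 sense and 0 antisense counts in replicate 2, and 6725 sense and 1 antisense count in replicate 1. The antisense share over both libraries was 0.00545% (exact Clopper-Pearson 95% interval 0.000138% to 0.0303%). Reads of both genes came from the plus strand of the locus, with at most 1 read of the minus strand in either row.

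Other rows have an M21 microRNA on their opposite strand as well, 32 in all, and 15 of them had more than 3 antisense counts in both libraries. Gm24083 had the fourth highest antisense count of these rows, behind Gm25301 (opposite Mir378a), Gm24321 (opposite Mir409) and Gm25927 (opposite Mirlet7e). It was 1 of 8 rows with at least 10 antisense counts and not a single sense count. On the log2(CPM + 1) scale its antisense level differed by -0.15 between replicate 2 and replicate 1. Over the 9 rows with at least 1000 antisense counts this difference ran from -0.22 to 0.04, and 4 of them were lower than Gm24083. Its antisense counts made up 3.87% of all antisense counts in replicate 2 and 3.83% in replicate 1.

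**Figure D2:**
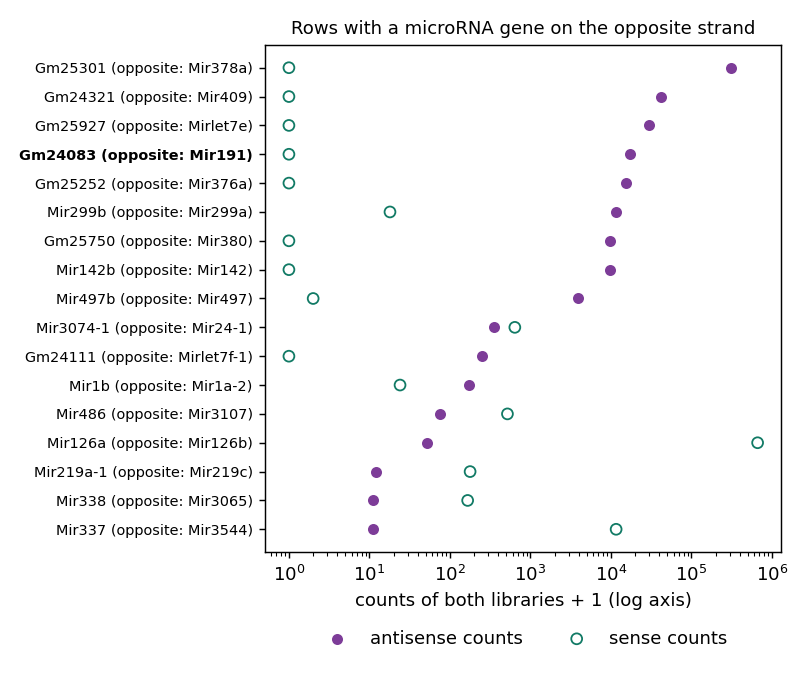
Sense (open) and antisense (filled) counts of both libraries together, plus 1, on a log axis, for rows with a microRNA gene on the opposite strand and at least 10 antisense counts. Gm24083, in bold, holds 17145 antisense and 0 sense counts.

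Mir191 stood at 1674 CPM in replicate 2 (95% counting interval 1640 to 1710) and 1854 CPM in replicate 1 (1814 to 1894). CPM were computed over the sense counts of all gene rows, which numbered 5279908 in replicate 2 and 4478599 in replicate 1. Its mean was 1764 ± 127 CPM (SD, n = 2). Replicate 2 was thus slightly the lower of the 2 for Mir191, and the SD was 7.2% of the mean.

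Mir425 stood at 2204 CPM in replicate 2 (95% counting interval 2164 to 2244) and 1502 CPM in replicate 1 (1466 to 1538), with a mean of 1853 ± 497 CPM (SD, n = 2). Here replicate 2 was the higher library, and the SD was 26.8% of the mean. The means of the 2 genes differed by 88.4 CPM, less than the SD of either. No order between the genes can therefore be given for the tissue. Set against the sense total, their counts together came to 0.388% in replicate 2 and 0.336% in replicate 1, or 3617 ± 369.5 CPM (SD, n = 2). The antisense counts of Mir191 are not part of that total, so these percentages are ratios to it and not shares of it.

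**Figure D3:**
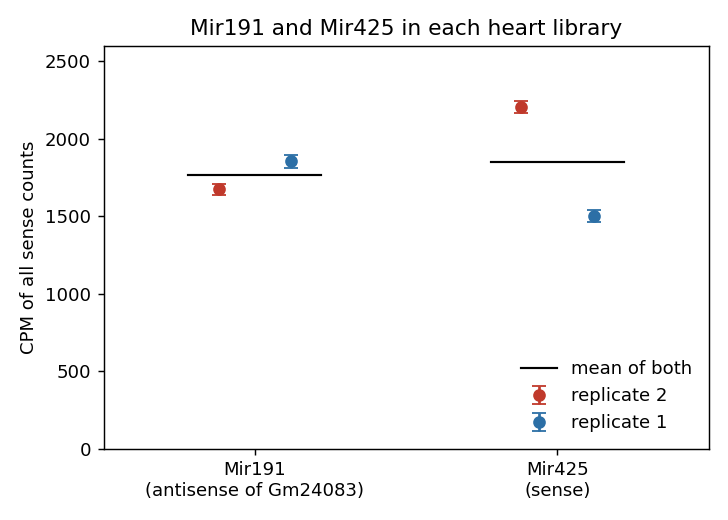
CPM of Mir191 and Mir425 in each library, replicate 2 in red and replicate 1 in blue, with exact 95% counting intervals as error bars and the mean of both as a line. For Mir425 replicate 2 lies above replicate 1, at 2204 against 1502 CPM, and for Mir191 below it, at 1674 against 1854 CPM.

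Both genes were among the more abundant microRNA genes of the heart libraries. With each antisense read given to the M21 microRNA of its strand, 734 genes had a count, and by mean CPM Mir425 ranked 67 and Mir191 ranked 69. Mir425 ranked 60 in replicate 2 and 75 in replicate 1, whereas Mir191 ranked 69 and 67. The tissue label is matched by the cardiac muscle microRNAs Mir208b, Mir208a and Mir499, which lie in myosin heavy chain genes. Mir499, the lowest of them, had a mean of 2138 ± 34.15 CPM (SD, n = 2), close above the mean of each gene of the cluster. In replicate 2, though, Mir425 stood higher than Mir499, at 2204 against 2162 CPM. Of the 29 microRNA genes of chromosome 9 with a count, only Mirlet7g (19813 ± 3133 CPM, SD, n = 2) and Mir100 (6038 ± 142 CPM, SD, n = 2) had means above both genes. The cluster made up 11.7% of that chromosome's summed mean CPM. That share may be too high, as the chromosome also holds genes with several copies, such as Mirlet7a-2. Such genes may also stand above the cluster without showing it here.

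Of the genes next to the cluster in level, none could be ordered against Mir425, and 3 of the 7 named here lay apart from Mir191. Above Mir425 came Mir361 (2098 ± 217.5 CPM, SD, n = 2), Mir107 (2082 ± 64.1 CPM, SD, n = 2) and Mir484 (1891 ± 173 CPM, SD, n = 2). Between Mir425 and Mir191 stood Mir382 (1802 ± 208 CPM, SD, n = 2). Below Mir191 came Mir98 (1748 ± 122 CPM, SD, n = 2), Mir16-1 (1743 ± 160.4 CPM, SD, n = 2) and Mir302d (1653 ± 11.5 CPM, SD, n = 2). Mir361 (1944 and 2252 CPM in replicates 2 and 1) and Mir107 (2036 and 2127 CPM) lay above the range that the 2 libraries spanned for Mir191, and Mir302d (1662 and 1645 CPM) lay below it. That range overlapped those of 6 other genes, and the wider range of Mir425 overlapped those of 19, from rank 57 to rank 79. Mir16-1 shares its mature sequence with another gene copy, which leaves its level uncertain, and likeness in level over 2 libraries says nothing of shared control.

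Mir425 and Mir191 differed between the libraries in opposite directions. The ratio of replicate 2 to replicate 1 was 1.47 for Mir425 (95% counting interval 1.42 to 1.51) and 0.903 for Mir191 (0.876 to 0.931). On the log2(CPM + 1) scale the differences were 0.55 and -0.15. Each side is 1 library, so these differences have no replicate check, and the intervals hold counting error alone. At a 2-fold limit 0 of the 2 genes passed, where 7 of 461 genes (1.52%) with at least 10 counts in total passed.

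By absolute difference within that background, Mir425 lay toward the upper end and Mir191 near the middle. A larger absolute difference than that of Mir425 was found at 49 of the 461 genes (10.6%), and than that of Mir191 at 267 (57.9%). The median absolute difference over all 461 was 0.17. Counting error is small at the depth of Mir425, so genes of like level give a closer comparison. Of 86 genes whose mean reached 1000 CPM and whose median absolute difference was 0.10, only Mir451a differed by more, with a log2 difference of 1.12. After Mir425 came Mir301 (0.38), Mirlet7d (-0.37) and Mir181d (0.34). Mir191 lay toward the lower end of the same 86 genes, with 71 at a higher signed difference and 28 at a larger absolute one. The rank of Mir425 among the 86 genes was looked up with its difference already known.

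**Figure D4:**
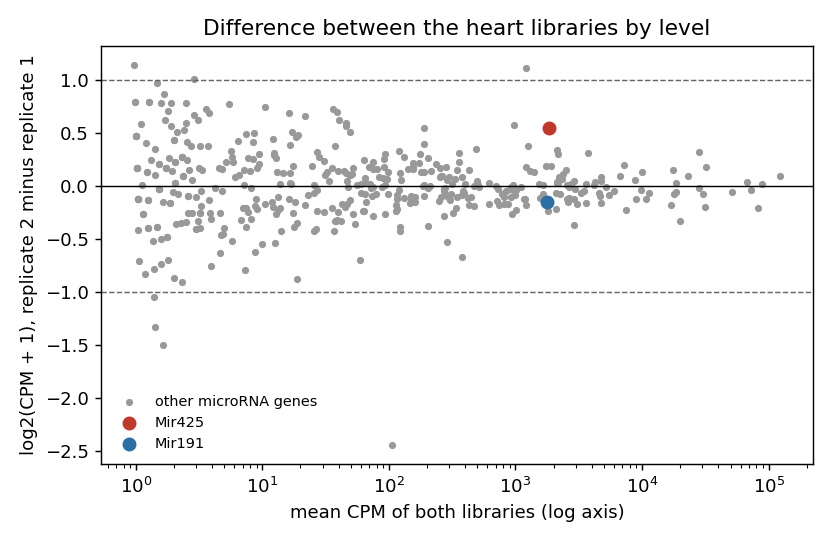
Difference in log2(CPM + 1) between replicate 2 and replicate 1 against mean CPM (log axis) for 461 microRNA genes with at least 10 counts in total, with dashed lines at 2-fold. Mir425, in red at 0.55, lies above all but 1 gene of a mean of at least 1000 CPM, and Mir191, in blue at -0.15, lies within the main band.

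Mir451a, a red blood cell microRNA, was also higher in replicate 2, at 1671 CPM against 769.7 CPM in replicate 1. The other 2 erythroid markers were not, with Mir144 at 139.8 and 155.9 CPM and Mir486 at 46.8 and 60.3 CPM in replicates 2 and 1. The summed erythroid level was 1858 CPM in replicate 2 and 986 CPM in replicate 1. Of 3 liver markers, Mir122 was far lower in replicate 2, at 32.4 CPM against 180.6 CPM in replicate 1, and the summed liver level was 122 CPM against 264.8 CPM. The other 2 did not follow, with Mir192 at 47.4 and 52.03 CPM and Mir194-1, which has a second copy, at 42.2 and 32.1 CPM in replicates 2 and 1. The 3 cardiac muscle markers lay between -0.05 and 0.03 in log2 difference, Mir126a of endothelium stood at 0.04, and the 4 white blood cell markers ranged from -0.22 to 0.22. The epithelial markers ranged from -0.18 to 0.16 and the smooth muscle markers from 0.03 to 0.18. Of the neural markers, Mir9-1 had 3 counts in replicate 2 and 1 in replicate 1, and Mir124-1, listed as Mir124a-1, had 1 and 0. Both neural genes have 3 copies, so their levels are uncertain and may be too low. Their low counts therefore do not show that neural microRNAs were absent. The part of other cells in the difference of Mir425 was not tested. In whole tissue, fewer cells of a type and less of a microRNA per cell cannot be told apart.

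Other microRNAs that are often used to normalize measurements, as miR-191 is, were set beside the cluster. All 21 genes of the list had at least 10 counts, and their log2 differences ran from -0.32 for Mirlet7g to 0.51 for Mir103-2, with a median of 0.05. A larger absolute difference than that of Mir191 was found at 12 of the 21, and than that of Mir425 at 0. Mir103-2, the nearest to Mir425, had 307 counts in replicate 2 and 181 in replicate 1 and has a second copy. By level 9 of the 21 stood above both genes of the cluster and 12 below both. The highest was Mir26b at 30050 ± 1131 CPM (SD, n = 2), and the lowest was Mir103-1 at 3.36 ± 0.334 CPM (SD, n = 2). In all, 9 of the listed genes have several copies, Mir103-1 among them, and all 9 are among the 12 that stood below both genes. Their levels and differences are uncertain, and the levels may be too low.

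Within a library the 2 genes of the cluster stood close to each other, but their order was not the same in both. The ratio of Mir191 to Mir425 was 0.76 in replicate 2 (95% counting interval 0.739 to 0.781) and 1.235 in replicate 1 (1.196 to 1.275). This ratio does not depend on how the libraries are scaled. Mir191 thus took 43.2% of the cluster's counts in replicate 2 and 55.25% in replicate 1. Over both libraries the ratio was 0.997 ± 0.336 (SD, n = 2). The ratio in replicate 2 was 0.615 of that in replicate 1 (95% counting interval 0.59 to 0.642), a shift of -0.70 on the log2 scale.

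Most other clusters of this size held genes with far more unequal counts. GENCODE M21 gave 37 clusters of exactly 2 microRNA genes on 1 strand, with starts at most 10000 bases apart and at least 1 gene of 10 CPM or more. Their median absolute log2 difference between the genes was 3.64, and the largest, for Mir99a and Mirlet7c-1, was 10.6. Mirlet7c-1 has a second copy, and only 20 of the 37 clusters held single-copy genes alone. Genes with several copies may read too low, so the median and the largest difference may be too large. Among the single-copy clusters the largest difference was 8.13, for Gm23363 and Mir199b. By the mean over both libraries Mir191 and Mir425 had the smallest difference, 0.05. This place came from averaging a value above 0 with one below it: within replicate 2 the cluster held place 5 of 37 and within replicate 1 place 4. Next in order were Mir296 and Mir298 (0.05), Mir194-2 and Mir192 (0.21), and Mir181d and Mir181c (0.25). Of these, Mir194-2 has a second copy.

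**Figure D5:**
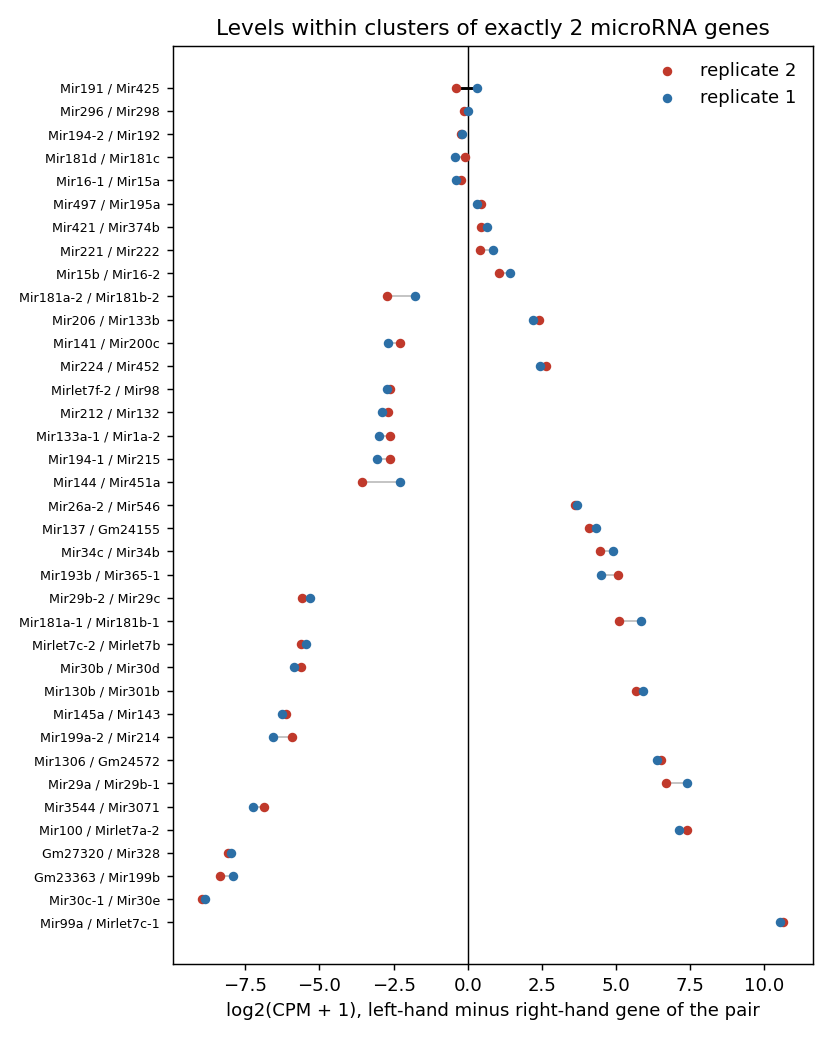
Difference in log2(CPM + 1) between the left-hand and the right-hand gene of each of 37 clusters of exactly 2 microRNA genes, in replicate 2 (red) and replicate 1 (blue), ordered from the smallest mean difference at the top. Mir191 and Mir425, in the top line, lie on either side of 0 in the 2 libraries.

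The change of the ratio between libraries was then compared with that of other neighbours, a comparison chosen after the values were seen. Among 64 pairs of adjacent microRNA genes of 1 strand with means of at least 50 CPM, the median absolute shift was 0.19. A larger shift than that of Mir191 and Mir425 was found at 3 pairs. These were Mir144 and Mir451a (-1.27), Mir181a-2 and Mir181b-2 (-0.95), and Mir501 and Mir362 (-0.72). Mir181a-2 and Mir181b-2 each have a second copy, so their shift is uncertain. Of 57 pairs of single-copy genes, 2 had a larger shift than the cluster. Of the 20 pairs in which both means reached 1000 CPM, 0 had a larger shift. The order of the genes differed between the libraries at 3 of the 64 pairs, and at the other two, Mir540 with Mir665 and Mir296 with Mir298, the shifts were -0.15 and -0.13.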

How the data were processed

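Per the descriptions deposited by the authors, the tables are gene quantifications on mm10 with annotation M4, 1 per library. The values they deposited are unnormalized counts for each microRNA gene, in 3 unnamed columns, read from their totals as without strand, sense and antisense. Of the aligner and the counter nothing is given in the sources used here. Rows that name no gene held 50.2% of reads in replicate 2 and 51.5% in replicate 1, by the sense column, and were left out. Reads that fit several places (25.3% and 27.1%) have a row of their own and are in no gene's count.

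GENCODE M21 named 1894 of 1973 rows. Antisense counts were given to an M21 microRNA of the opposite strand without a row of its own, which gave 1926 genes. CPM used the sense total, with a pseudocount of 1 before log2. Counting intervals are exact (Poisson for levels, binomial for ratios, conditional for the ratio of ratios), at 95%. They and limits from 3 counts cover counting error only, as no molecular identifiers are stated. With 1 group no edgeR test was possible; edgeR 4.0.16 (TMM) and DESeq2 1.42.0 served for scaling in R 4.3.3. Python 3.11.15, pandas 2.3.3, scipy 1.17.1, matplotlib 3.10.9 and RNAfold 2.7.2 did the rest. The interval and the 2-fold call were run on simulated Poisson counts. These had no variation between libraries beyond planted changes, so the run says nothing of such variation.

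The genes and lists were chosen with earlier results of these data known. Named were the 2 genes, the 3 genes on either side in level, seed sharers, higher genes of the chromosome, the list of normalizers, marker genes and the clusters nearest in ratio; genes named for their difference were chosen after their values were seen.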

Additional observations from a re-analysis of the deposited data

How the results depend on the processing

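Of 56 alternatives, 47 left their result within its spread or within 1.5 times its count. At n = 2, leaving a replicate out always moves a mean level or ratio by less than its SD. Those alternatives therefore lay within their spread by design. The log2 differences of both genes kept their direction throughout. Scaling by TMM or DESeq2, other denominators, other pseudocounts and counts without strand kept the log2 difference of Mir425 between 0.55 and 0.59 and that of Mir191 between -0.15 and -0.11. With all reads of the table as denominator, which more than doubles it, Mir425 had 912.9 and Mir191 866.5 CPM. Without one replicate, Mir425 ranged from 1502 to 2204 CPM, Mir191 from 1674 to 1854 CPM and the ratio of Mir191 to Mir425 from 0.76 to 1.235, so which gene is higher depends on the library. The rank of Mir425 then ranged from 60 to 75 and that of Mir191 from 67 to 69, and with no other antisense counts the ranks were 64 and 66. The place among 2-gene clusters stayed 1 with other distances and with single-copy genes; without one replicate, an alternative chosen after seeing the data, it was 4 to 5. The 7 genes past 2-fold became 2 with at least 100 counts, 16 with a pseudocount of 0.5 CPM and 2 with one of 10 CPM; neither gene of the cluster passed in any of these. No paired analysis was possible because there is 1 group. With 2 libraries, the spread of Mir425 rests on a single difference.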
